A study of Mus with 4 samples.

Results

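The 29 genes described here encode the parts of MHC class I antigen presentation and of the interferon response. They were taken as a list of symbols from the 31253 genes counted in every library, and all 29 were found in the count tables. No cutoff on their values was used, but the list was chosen with earlier results of these data known. Counts of these genes set beside the share of all genes are therefore descriptions. MHC class I is the complex that shows short peptides from inside a cell to CD8 T cells: a heavy chain pairs with the light chain β2-microglobulin after peptides, cut by the proteasome, have been carried into the endoplasmic reticulum and loaded. Type I and type II interferons bind receptors that activate STAT and IRF transcription factors, which switch on interferon-stimulated genes and raise the class I genes at the same time. In sensory ganglia class I is known to be plentiful on endothelial and immune cells and sparse on resting neurons.

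Cells were dissociated from the L4-5 dorsal root ganglia (DRGs) of adult male wild-type C57BL/6J mice. CCI mice were taken on day 3 after chronic constriction injury, a model in which the left sciatic nerve is loosely tied with ligatures, and CON mice were naïve and had no operation. Each group had 2 single-cell RNA-seq libraries (10x Genomics 3′ chemistry), called CCI replicates 1 and 2 and CON replicates 1 and 2, and values for a group are given in that order of replicates. The sources used here do not give the number of mice behind a library. The p-values therefore cover the spread between libraries alone, and that spread may be technical.

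The libraries held 11155 and 10602 kept cells in CCI and 10743 and 2613 kept cells in CON. Median depth per cell, in unique molecular identifiers (UMIs, counted molecules), was 3675 and 4552 in CCI and 2508 and 8352 in CON. CON replicate 2 thus had the fewest and deepest cells. Between 8 and 29 cell barcodes were shared by any pair of libraries, and no cell was removed as a doublet. Cells were clustered without the 29 genes and named "-like" from marker genes, giving 3690 neuron-like, 8461 satellite glia-like, 3444 Schwann cell-like, 2308 endothelial cell-like, 1776 fibroblast-like, 1758 immune cell-like and 1497 pericyte-like cells. The pericyte-like cluster was led by smooth muscle genes (Acta2, Myh11 and Des) beside the pericyte genes Rgs5 and Notch3, and it was not divided further. Another 3217 cells stayed unnamed, and 8106 barcodes carried neuron markers at low depth and were kept apart. The fibroblast-like class had only 45 cells in CON replicate 2. Because CCI and CON cells are compared as sums per library, fewer cells of a kind within a class and less RNA per cell cannot be told apart.

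Of the 29 genes, 10 lie on mouse chromosome 17 (GRCm38.p6), where the MHC is found. H2-K1 spans chr17:33996012-34000619 and H2-D1 chr17:35263094-35267497. Between them Psmb9, Tap1, Psmb8 and Tap2 follow each other, at chr17:34182030-34187330, chr17:34187556-34197225, chr17:34198195-34201454 and chr17:34204479-34216321. H2-Q4 lies at chr17:35379617-35384674 and H2-Q7 at chr17:35439140-35443773, among near-identical neighbours of the H2-Q family, so their counts are uncertain where reads could be split between copies. B2m lies on chromosome 2 at chr2:122147687-122153082, and Ifit1, Ifit2 and Ifit3 stand together on chromosome 19, where closely related copies also exist.

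As a share of UMIs, class I was highest in endothelial cell-like and lowest in neuron-like cells. Median depth was 53980.5 and 68376 UMIs in CCI and 36593 and 95973 in CON neuron-like cells. In endothelial cell-like cells it was 6625 and 8055.5 in CCI and 4575 and 13190 in CON. The order therefore does not hold for UMIs per cell, which were not compared. Levels are given as CPM, the UMIs of a gene per 1000000 UMIs of its class in a library after TMM scaling, and classes were clustered from the same cells, so the order of classes is a description with no test. The summed level of the 5 heavy chains and B2m was 5915 and 6236 CPM in CCI and 4434 and 7115 CPM in CON endothelial cell-like cells. Immune cell-like cells followed with 4414 and 4069 CPM in CCI and 3310 and 7025 CPM in CON, and these neighbours in the order overlapped. Satellite glia-like cells came next with 2192 and 2707 CPM in CCI and 2480 and 2127 CPM in CON. The means of the 4 libraries were 1605 ± 356 CPM in fibroblast-like, 1323 ± 401 in pericyte-like and 901 ± 158 in Schwann cell-like cells (SD, n = 4), whose ranges overlapped from each to the next. Neuron-like cells had 727 and 720 CPM in CCI and 392 and 551 CPM in CON, the lowest of the 7 classes by mean. The low-UMI barcodes with neuron markers had 698 and 981 CPM in CCI and 415 and 664 CPM in CON.

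**Figure D1:**
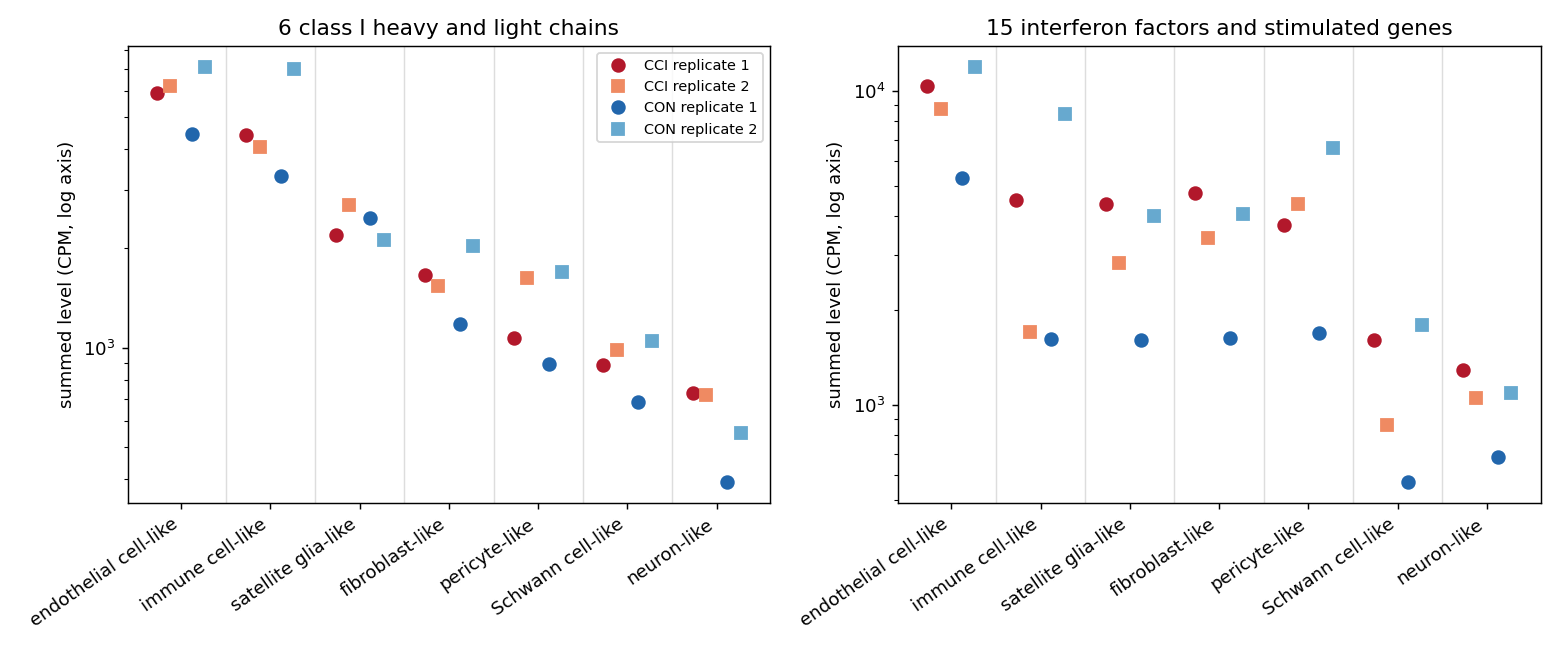
Summed level (CPM, log axis) of the 6 class I heavy and light chains (left) and of the 15 interferon transcription factors and interferon-stimulated genes (right) in each of the 7 classes; each point is 1 library, CCI in red and CON in blue. Class I falls in steps from endothelial (mean 5925 CPM) to neuron-like cells (mean 597 CPM), and in the right panel CON replicate 1 is the lowest library in every class while CON replicate 2 is among the highest.

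Single class I genes followed this order in outline. H2-K1, a classical heavy chain that presents peptides, had a mean of 1660 ± 331 CPM over the 4 libraries in endothelial cell-like cells, 1062 ± 408 CPM in immune cell-like cells and 585 ± 71.7 CPM in satellite glia-like cells (SD, n = 4). In neuron-like cells H2-K1 had a mean of 100.7 ± 27.8 CPM (SD, n = 4). B2m, the light chain shared by all class I molecules, had 1548 ± 399 CPM in immune cell-like, 1470 ± 272 CPM in endothelial cell-like and 850 ± 72.8 CPM in satellite glia-like cells, against 146 ± 48.2 CPM in neuron-like cells (SD, n = 4). H2-D1 was an exception at the low end, with means of 335 CPM in neuron-like and 264 CPM in Schwann cell-like cells, and their ranges overlapped. H2-T23, the non-classical heavy chain Qa-1 that shows leader peptides to NK cell receptors, was above the satellite glia-like level in fibroblast-like cells, with 197 CPM there and 64.5 CPM in satellite glia-like cells (means, n = 4). H2-Q7 was a gene mainly of endothelial cell-like and immune cell-like cells, with means of 142 and 88.9 CPM, and its mean was 17.1 CPM or less in each of the other 5 classes. Psmb8, a catalytic subunit of the immunoproteasome, had means of 416 CPM in immune cell-like, 364 CPM in endothelial cell-like and 219 CPM in satellite glia-like cells and of 50.2 to 94.1 CPM in the other classes, neuron-like cells included. Nlrc5, the transactivator of class I genes, was sparse everywhere, from a mean of 0.467 CPM in fibroblast-like to 11.8 CPM in immune cell-like cells.

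Most interferon-stimulated genes were highest in endothelial cell-like cells too. Ifitm3, a membrane protein that blocks virus entry, had 4991 and 4353 CPM in CCI and 2536 and 4806 CPM in CON there, against 46.0 and 52.4 CPM in CCI and 21.98 and 33.0 CPM in CON neuron-like cells. Irf7, the factor that amplifies type I interferon, had a mean of 538 CPM in endothelial cell-like cells and of 8.70 to 176 CPM in the other classes. Bst2, or tetherin, which holds budding virions at the cell surface, had means of 971 CPM in endothelial cell-like, 789 CPM in immune cell-like and 81.8 CPM in neuron-like cells. Ifi27 and Zbp1 went against this order, with the highest means in satellite glia-like and immune cell-like cells. Ifi27, a mitochondrial interferon-induced protein, had a mean of 466 ± 45.0 CPM in neuron-like cells (SD, n = 4) and of 374 CPM in endothelial cell-like cells. It was highest in satellite glia-like cells at 625 CPM and lowest in immune cell-like cells at 197 CPM. Ifit1, which binds viral RNA lacking a methylated cap, had a mean of 165 ± 105 CPM in neuron-like cells (SD, n = 4), second to the 720 CPM of endothelial cell-like cells. Its means in the other 5 classes were 36.6 to 141 CPM, and their ranges overlapped that of neuron-like cells.

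Neuron-like cells also carried Ifit1 and Isg15 in another proportion than the other classes. Within each library, neuron-like cells held 7.31 and 11.8 Ifit1 UMIs for each UMI of Isg15, the ubiquitin-like modifier ISG15, in CCI and 11 and 11.2 in CON. The same ratio was 0.569 and 2.63 in CCI and 0.635 and 0.621 in CON endothelial cell-like cells, and 0.296 and 0.725 in CCI and 0.125 and 0.258 in CON satellite glia-like cells. Ifi27 over Isg15 was also highest in neuron-like cells, at 10.1 and 37.6 in CCI and 128 and 33.4 in CON. Ifit3 over Bst2 did not set neurons apart, with 0.243 and 0.225 in CCI and 0.122 and 0.232 in CON. Psmb8 over B2m was 0.357 and 0.327 in CCI and 0.342 and 0.372 in CON neuron-like cells, the highest class in each library. The next values in CCI were close, at 0.334 in fibroblast-like cells of replicate 1 and 0.304 in immune cell-like cells of replicate 2. Satellite glia-like cells had 0.327 and 0.218 in CCI and 0.206 and 0.295 in CON.

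Among the non-neuronal classes, the level of the interferon-stimulated genes differed widely between libraries of 1 group. In satellite glia-like cells Ifit3, an antiviral partner of Ifit1, had 216 and 93.5 CPM in CCI and 27.7 and 267 CPM in CON. Isg15 had 503 and 201 CPM in CCI and 147 and 602 CPM in CON satellite glia-like cells. In both genes CON replicate 2 was the highest library and CON replicate 1 the lowest, with the CCI libraries between them. Immune cell-like cells showed the widest gap: Ifit3 had 77.8 and 19.8 CPM in CCI and 14.2 and 457 CPM in CON, and Isg15 had 331 and 44.8 CPM in CCI and 49.3 and 799 CPM in CON.

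Of the 15 interferon transcription factors and stimulated genes, CON replicate 2 was the highest library for 9 in satellite glia-like, 14 in immune cell-like, 13 in pericyte-like and 10 in endothelial cell-like cells, 8 each in fibroblast-like and Schwann cell-like cells and 1 in neuron-like cells. CON replicate 2 was at least 2-fold above CON replicate 1 for 13 of 15 in satellite glia-like cells, where 4.19% of all 13085 genes tested were. It was so for 14 of 15 in immune cell-like cells (12.8% of all genes), 14 of 15 in pericyte-like cells (10.4%), 13 of 15 in endothelial cell-like cells (4.31%), 12 of 15 in fibroblast-like cells (9.85%), 12 of 14 tested in Schwann cell-like cells (9.62%) and 9 of 15 in neuron-like cells (3.11%). Within CCI, replicate 1 was at least 2-fold above replicate 2 for 13 of 15 in immune cell-like cells (8.48% of all genes), 10 of 15 in fibroblast-like cells (4.40%) and 6 of 15 in satellite glia-like cells (6.27%), but for none of 15 in pericyte-like cells (6.59%). The class I heavy and light chains moved less: CON replicate 2 was 2-fold above CON replicate 1 for 1 of 6 in satellite glia-like, neuron-like and endothelial cell-like cells each, and for 5 of 6 in immune cell-like cells. Median depth per cell was 3675 and 4552 UMIs in CCI and 2508 and 8352 UMIs in CON, and its part in these levels was not tested.

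The spread of these genes over cells was also counted. Each cell with at least 2000 UMIs was thinned to 2000, and the cells were counted that kept at least 1 UMI of 9 interferon-stimulated members, leaving out Bst2, Ifi27 and Ifitm3, a choice made after their high levels had been seen. Among satellite glia-like cells these were 72.2% and 49.1% in CCI and 32.7% and 75.7% in CON, and before thinning 84.4% and 76.0% in CCI and 48.0% and 93.6% in CON. With all 12 stimulated members the thinned shares were 98.5% and 96.8% in CCI and 91.5% and 97.1% in CON satellite glia-like cells. Thinning left out 243 and 113 CCI and 346 and 45 CON satellite glia-like cells. Among immune cell-like cells 76.2% and 30.8% in CCI and 32.8% and 90.6% in CON kept a UMI. Among neuron-like cells, thinned to a small part of their depth, 50.3% and 32.0% in CCI and 20.5% and 48.9% in CON did, and unthinned the shares were 93.8% and 90.3% in CCI and 84.5% and 91.5% in CON. At least 3 UMIs were kept by 32.98% and 14.7% of CCI and 5.35% and 44.9% of CON satellite glia-like cells, and by 13.7% and 6.11% of CCI and 1.11% and 9.16% of CON neuron-like cells. No class is known to lack these genes, so a background share from free RNA could not be set.

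**Figure D2:**
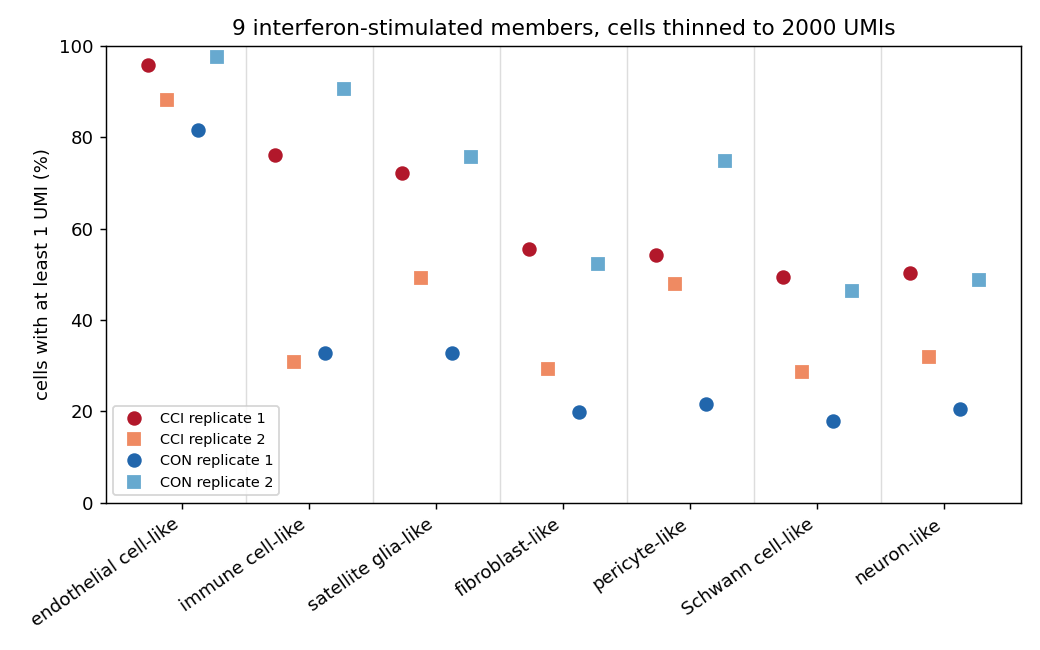
Share of cells (%) with at least 1 UMI of 9 interferon-stimulated members after thinning to 2000 UMIs, in the 7 classes; each point is 1 library, CCI in red and CON in blue. In satellite glia-like cells the shares are 72.2% and 49.1% in CCI and 32.7% and 75.7% in CON, so the CON libraries lie on both sides of the CCI libraries.

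In neurons, B2m, H2-Q4 and Zbp1 were called higher after CCI, and none of them was called in each of the 4 fits that left out 1 library. Of the 29 members, all tested, 3 rose in CCI neuron-like cells and none fell (edgeR quasi-likelihood test, adjusted p under 0.05), where 4.51% of all 15500 genes tested were called higher and 0.884% lower. The median log2 fold change was 0.61 over the members and -0.02 over all genes tested, and 26 of the 29 had a value above 0. In 13 of 29 the groups did not overlap and CCI was the higher, as in 24.4% of all genes tested. At an unadjusted p under 0.05 there were 10 members, where 18.2% of all genes were.

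The members called were B2m, H2-Q4 and Zbp1. B2m had 183 and 189 CPM in CCI and 89.7 and 122 CPM in CON neuron-like cells. Its groups did not overlap, and its log2 fold change was 0.81 ± 0.20 (SE, adjusted p = 0.0488, edgeR). H2-Q4, a heavy chain of the Qa family, had 5.20 and 5.54 CPM in CCI and 2.28 and 2.41 CPM in CON, or 439 and 301 UMIs in CCI and 104 and 69 UMIs in CON. It was 2.29-fold higher in CCI, a log2 fold change of 1.20 ± 0.24 (SE, adjusted p = 0.021, edgeR). Zbp1, a sensor of Z-form nucleic acids that can start necroptosis, was rare, with 92 and 39 UMIs in CCI and 10 and 7 UMIs in CON, or 1.09 and 0.718 CPM in CCI and 0.220 and 0.244 CPM in CON. Its log2 fold change was 1.97 ± 0.45 (SE, adjusted p = 0.0399, edgeR), and DESeq2 gave an adjusted p of 0.0819.

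How many members were called depended on CON replicate 2. Without that library 19 members were called higher in CCI, where 7.11% of all 16244 genes tested then were, among them H2-K1, H2-D1, Psmb8, Isg15, Ifit1 and Irf7. Without CCI replicate 1 only H2-Q4 was called, without CCI replicate 2 the 3 called were Zbp1, Isg15 and Ifit1, and without CON replicate 1 there were 4. DESeq2 called 5, adding Ifitm3, H2-K1 and Psmb8 and leaving out Zbp1, and edgeR with no filter on low counts called 13.

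**Figure D3:**
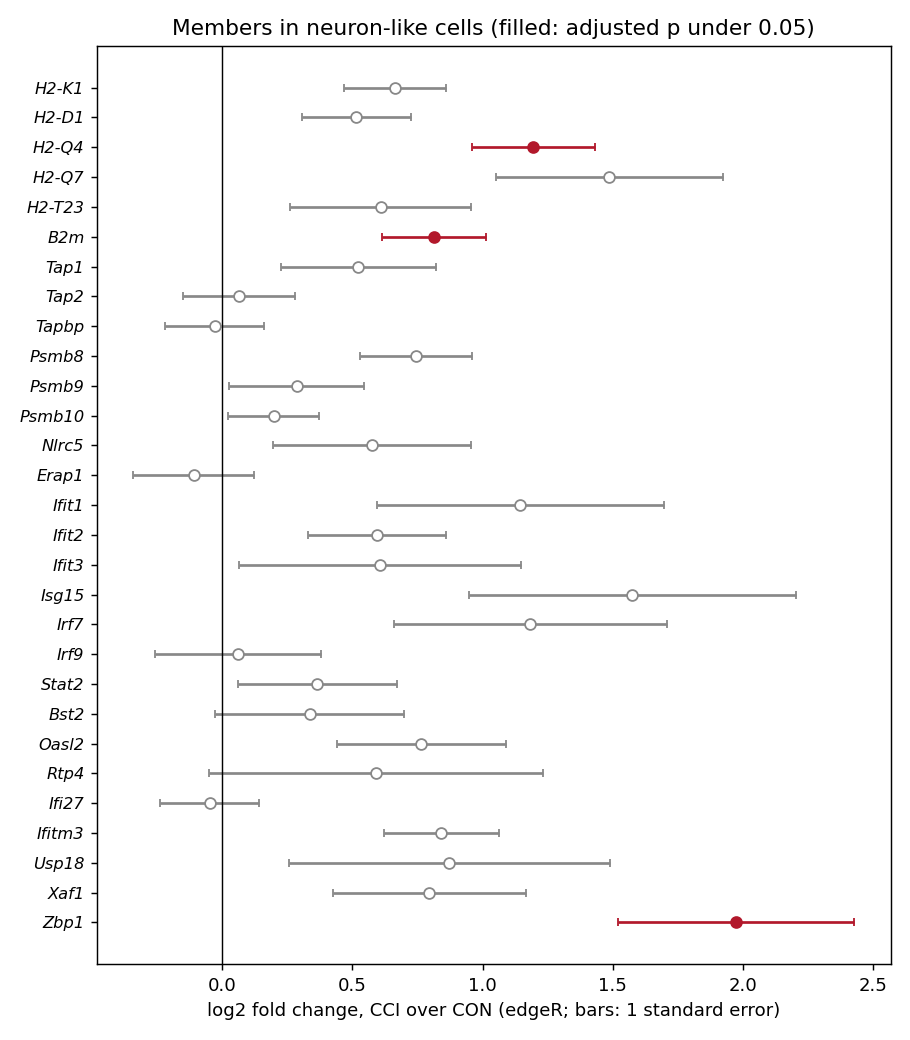
Log2 fold change (CCI over CON) of each of the 29 members in neuron-like cells, with bars of 1 standard error (edgeR, 2 libraries per group); filled red points passed an adjusted p of 0.05. H2-Q4 (1.20), B2m (0.81) and Zbp1 (1.97) passed, and the interferon-stimulated genes Isg15 and Ifit1 have larger values than B2m with wide bars.

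Of the other heavy chains, H2-K1 had 122 and 125 CPM in CCI and 66.7 and 89.2 CPM in CON neuron-like cells. Its log2 fold change of 0.66 ± 0.19 (SE) did not pass with edgeR (adjusted p = 0.0987). H2-D1, the second classical heavy chain, had 401 and 388 CPM in CCI and 227 and 325 CPM in CON, with a log2 fold change of 0.52 ± 0.21 (SE, adjusted p = 0.23, edgeR). The CCI libraries of both genes lay close together above CON, whose libraries differed from each other by more. H2-T23 had 14.98 and 10.9 CPM in CCI and 5.23 and 11.9 CPM in CON, and the groups overlapped (log2 fold change 0.61 ± 0.35, SE, adjusted p = 0.408, edgeR). H2-Q7 was rare, with 1.20 and 1.49 CPM in CCI and 0.637 and 0.279 CPM in CON (adjusted p = 0.0991, edgeR).

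The loading and cutting machinery differed by gene. Psmb8 had 65.2 and 62.0 CPM in CCI and 30.7 and 45.3 CPM in CON neuron-like cells, a log2 fold change of 0.74 ± 0.21 (SE, adjusted p = 0.0923, edgeR). Psmb10, another immunoproteasome subunit, had 112 and 114 CPM in CCI and 91.4 and 106 CPM in CON, with 0.20 ± 0.17 (SE, adjusted p = 0.614, edgeR). Psmb9, the third, had 9.50 and 8.08 CPM in CCI and 5.51 and 8.997 CPM in CON (log2 fold change 0.29 ± 0.26, SE, adjusted p = 0.625, edgeR). Of these 3 subunits, Psmb8 and Psmb10 had both CCI libraries above both CON libraries. Tapbp, or tapasin, which edits the peptides of the heavy chain, had 46.1 and 44.0 CPM in CCI and 39.7 and 52.2 CPM in CON, with a log2 fold change of -0.03 ± 0.19 (SE, adjusted p = 0.964, edgeR). Tap2, a subunit of the peptide transporter, had 13.0 and 11.04 CPM in CCI and 9.88 and 13.2 CPM in CON (log2 fold change 0.07 ± 0.22, SE, adjusted p = 0.918, edgeR). Its partner Tap1 had 7.65 and 5.87 CPM in CCI and 3.40 and 6.10 CPM in CON (log2 fold change 0.52 ± 0.30, SE, adjusted p = 0.405, edgeR). The groups overlapped in these 3 loading genes and in Erap1, the aminopeptidase that trims peptides, whose log2 fold change was -0.11. Nlrc5 had 179 and 63 UMIs in CCI and 46 and 35 UMIs in CON (log2 fold change 0.57 ± 0.38, SE, adjusted p = 0.486, edgeR).

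Of the transcription factors of the interferon response, Irf7 had 22.5 and 19.0 CPM in CCI and 3.32 and 15.2 CPM in CON neuron-like cells (log2 fold change 1.18 ± 0.53, SE, adjusted p = 0.275, edgeR). CON replicate 1 was far below the other 3 libraries. Irf9 and Stat2, transcription factors that act downstream of the type I interferon receptor, had log2 fold changes of 0.06 ± 0.32 and 0.37 ± 0.30 (SE, adjusted p = 0.953 and 0.589, edgeR). Irf9 had 22.4 and 14.6 CPM in CCI and 12.1 and 23.6 CPM in CON, and Stat2 had 50.9 and 24.4 CPM in CCI and 26.5 and 32.0 CPM in CON, so the groups of both overlapped.

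Among the stimulated genes, Ifitm3 had 46.0 and 52.4 CPM in CCI and 21.98 and 33.0 CPM in CON neuron-like cells, a log2 fold change of 0.84 ± 0.22 (SE) that passed with DESeq2 (adjusted p = 0.0101) and not with edgeR (adjusted p = 0.0648). Ifi27 had 410 and 506 CPM in CCI and 449 and 498 CPM in CON (log2 fold change -0.05 ± 0.19, SE, adjusted p = 0.934, edgeR), and its level was steady. Bst2 had 116 and 66.8 CPM in CCI and 45.1 and 99.7 CPM in CON (log2 fold change 0.34 ± 0.36, SE, adjusted p = 0.69, edgeR). The values of Ifit1 were 296 and 159 CPM in CCI and 38.8 and 167 CPM in CON, those of Isg15 40.5 and 13.5 CPM in CCI and 3.51 and 14.9 CPM in CON. In both, CCI replicate 2 and CON replicate 2 were alike, with CCI replicate 1 above and CON replicate 1 below them. Oasl2, Xaf1 and Ifit2 had both CCI libraries above both CON libraries, with log2 fold changes of 0.77, 0.80 and 0.59, while Ifit3, Rtp4 and Usp18 overlapped. None of these passed, with edgeR or with DESeq2.

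Markers of other cells in the neuron-like class are given beside these values. The summed level of 10 immune marker genes was 9.76 and 41.9 CPM in CCI and 13.6 and 13.0 CPM in CON neuron-like cells, against 32770 and 41920 CPM in CCI and 63550 and 65020 CPM in CON immune cell-like cells. All 10 were detected in every library, and CCI replicate 2 was the highest. Leaving out the 10% of cells with the highest immune share in each library left H2-Q4 and Zbp1 called and B2m not, although the log2 fold change of B2m was 0.82 there. The part of immune RNA in these values was otherwise not tested. The 6 satellite glia markers summed to 1050 and 1395 CPM in CCI and 1399 and 1165 CPM in CON neuron-like cells, without a split by group.

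CIP-like neurons, the CCI-induced population marked by Atf3, made up 348 and 207 of the neuron-like cells in CCI and 5 and 2 in CON. In neuron-like cells outside the CIP-like clusters no member was called by edgeR, where 1.40% of all 15240 genes tested were called higher and 0.0197% lower. There 6 members had an unadjusted p under 0.05, where 9.70% of all genes did, and DESeq2 called 1. Of these cells' values B2m had 137 and 155 CPM in CCI and 91.2 and 124 CPM in CON, and Psmb8 had 71.3 and 68.4 CPM in CCI and 31.3 and 46.5 CPM in CON (log2 fold change 0.85, adjusted p = 0.133, edgeR). Without CON replicate 2, 13 members were called higher outside the CIP-like clusters, where 2.86% of all genes then were.

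Within the CCI libraries the members differed in their ratios between CIP-like and other neurons, which is given as a description because the clusters come from the same cells. B2m had 296 and 290 CPM in CIP-like neurons against 127 and 143 CPM in other neurons, ratios of 2.34 and 2.03. H2-Q4 had 10.3 and 10.4 CPM in CIP-like neurons against 2.93 and 3.57 CPM in others, and H2-D1 had 522 and 513 CPM in CIP-like neurons against 325 and 318 CPM in others. H2-K1 did not follow them, with 111 and 108 CPM in CIP-like neurons against 116 and 121 CPM in others. Below the level of other neurons in both libraries were Tap2 (ratios 0.517 and 0.537), Psmb9 (0.462 and 0.601), Psmb8 (0.754 and 0.681), Tapbp (0.765 and 0.735) and Erap1 (0.612 and 0.352). Of the interferon genes, Xaf1, a pro-apoptotic antagonist of XIAP, had ratios of 2.48 and 2.48, and Ifit1 1.93 and 2.58. Usp18, the protease that removes ISG15 and damps the receptor, had 1.92 and 2.78, and Irf7 1.63 and 2.26, whereas Ifi27 had 0.754 and 0.791. Other members of the same roles were near 1 or on both sides of it: Tap1 had 1.09 and 1.25, H2-T23 1.18 and 0.87, Isg15 1.28 and 0.944 and Ifitm3 1.27 and 0.742. In all, 17 of the 29 members were higher in CIP-like neurons of both libraries and 8 lower. Of the 14875 genes compared, 6160 (41.4%) were higher in both libraries and 6469, a larger number, were lower in both.

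**Figure D4:**
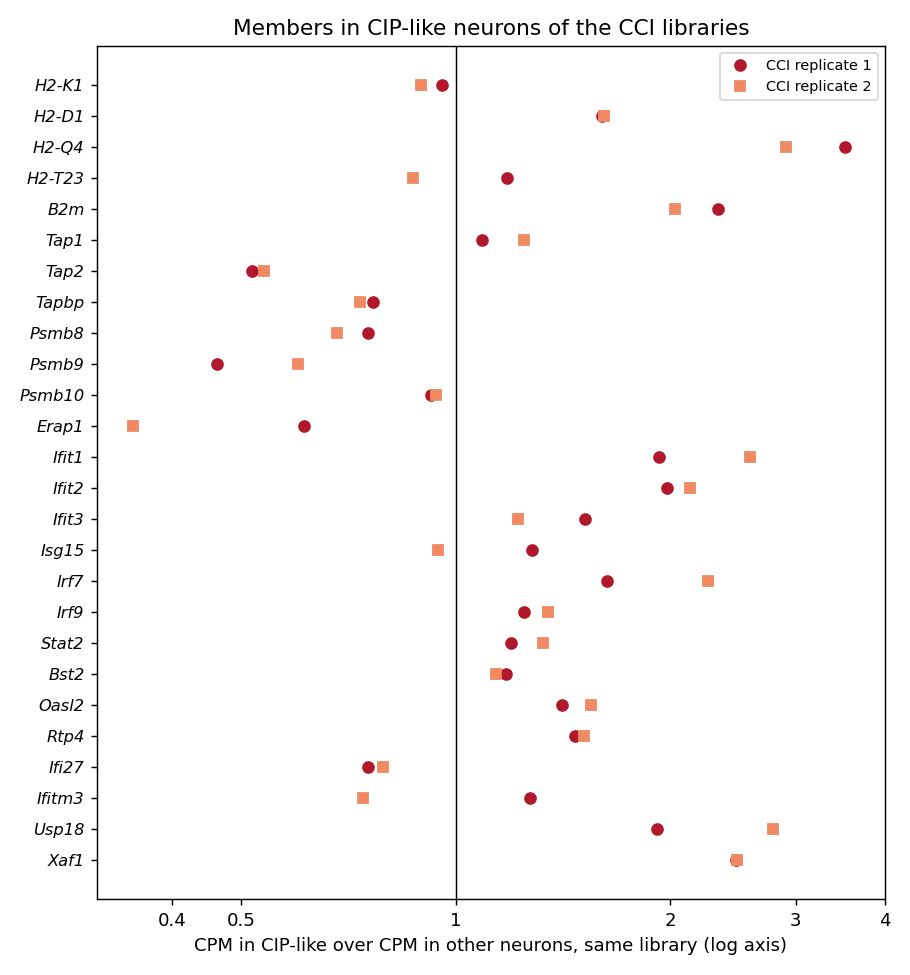
CPM in CIP-like neurons over CPM in the other neurons of the same CCI library (log axis), for 26 members in the 2 CCI libraries; Zbp1, H2-Q7 and Nlrc5 are left out for low counts. H2-Q4, B2m and H2-D1 and most interferon genes lie right of 1, and Tap2, Psmb8, Psmb9, Tapbp, Erap1 and Ifi27 lie left of it in both libraries.

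Neuron subtypes carried class I at different levels in CON and CCI alike. The summed heavy and light chains were 713 and 956 CPM in CCI and 325 and 659.5 CPM in CON PEP1-like peptidergic nociceptors. In NP1-like neurons, the Mrgprd nociceptors, they were 736 and 609 CPM in CCI and 470 and 510 CPM in CON. Neuron clusters 2 and 12 are given by number, because each had more markers of another subtype than of its closest subtype among its 10 leading genes (NF1 over NF2 in cluster 2, Sstr2 over PEP1 in cluster 12). Cluster 2, led by Tafa2, Hs3st2 and Slc17a7, had the lowest sums, at 219 and 183 CPM in CCI and 130 and 157 CPM in CON, and H2-K1 was 12.6 and 16.0 CPM in CCI and 14.95 and 10.6 CPM in CON there. Cluster 12, led by Dcdc2a and Sstr2, had sums of 1076 and 1029 CPM in CCI and 607 and 1112 CPM in CON, which overlapped. In cLTMR1-like neurons, the C-fibre mechanoreceptors, the sums were 605 and 539 CPM in CCI and 417 and 575 CPM in CON, and these groups overlapped.

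No member was called in the 3 subtypes and in cluster 2, which had 20 cells or more from each library. The edgeR test found none of 26 members tested in NP1-like, 27 in PEP1-like, 23 in cluster 2 and 23 in cLTMR1-like neurons, where 0.277%, 0.112%, 2.74% and 0.0448% of all genes tested were called higher and 0.0168%, 0, 0.291% and 0.00895% lower. At an unadjusted p under 0.05 there were 7, 2, 2 and 3 members, where 6.18%, 3.73%, 13.1% and 3.97% of all genes were, and DESeq2 called none in any of them. Without CON replicate 2, 8, 11, 6 and 7 members were called higher, where 0.808%, 1.16%, 2.53% and 0.597% of all genes then were. In NP1-like neurons 11 members had both CCI libraries above both CON libraries, as 17.6% of all genes tested did there, among them H2-K1 with 159 and 139 CPM in CCI and 89.1 and 93.4 CPM in CON.

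SST-like neurons, the Sst and Nppb pruriceptors that carry itch, had 17 members called higher in CCI. These were 78 and 44 cells in CCI and 55 and 10 cells in CON, and the test in subtypes with fewer than 20 cells in a library was added after these levels had been seen. Of the 27 members tested, none was called lower (edgeR, adjusted p under 0.05), where 2.55% of all 10229 genes tested were called higher and 0.518% lower. At an unadjusted p under 0.05 there were 22 members, where 16.2% of all genes were, and in 22 members both CCI libraries were the higher, where this was so for 23.5% of all genes. DESeq2 called 13, and edgeR called 12 to 21 with any 1 library left out.

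B2m, 3 of the 5 heavy chains and the 3 immunoproteasome subunits rose in SST-like neurons. B2m had 169 and 187 CPM in CCI and 33.5 and 26.7 CPM in CON, from 859 and 561 UMIs in CCI and 85 and 39 UMIs in CON. Its log2 fold change was 2.54 ± 0.19 (SE, adjusted p = 0.000168, edgeR), and the groups were far apart. H2-K1 had 216 and 204 CPM in CCI and 58.8 and 58.2 CPM in CON (log2 fold change 1.84 ± 0.16, SE, adjusted p = 0.000401, edgeR). H2-D1 and H2-T23 had log2 fold changes of 1.16 and 1.27 and passed too, whereas H2-Q4 did not (2.52, adjusted p = 0.107, edgeR) and H2-Q7 was too low to be tested. Psmb8 had 170 and 124 CPM in CCI and 29.98 and 28.1 CPM in CON, a log2 fold change of 2.34 ± 0.21 (SE, adjusted p = 0.000439, edgeR). Psmb9, Psmb10 and Tap1 also passed, at 1.78, 0.83 and 2.64, Tap1 on 3 UMIs in each CON library, whereas Tap2, Tapbp and Erap1 did not.

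Of the 15 interferon genes, 9 rose in SST-like neurons. Bst2 had 288 and 187 CPM in CCI and 53.3 and 51.3 CPM in CON SST-like neurons (log2 fold change 2.19 ± 0.23, SE, adjusted p = 0.000987, edgeR). Irf7 had 38.6 and 45.9 CPM in CCI and 3.95 and 6.84 CPM in CON (log2 fold change 3.04 ± 0.31, SE, adjusted p = 0.000846, edgeR). Ifit1 had 421 and 244 CPM in CCI and 45.0 and 97.2 CPM in CON, a log2 fold change of 2.27 ± 0.35 (SE, adjusted p = 0.0087, edgeR). Oasl2, Usp18, Ifit3, Rtp4, Isg15 and Ifitm3 passed as well. Isg15 rested on 4 and 1 UMIs in CON, and its CCI libraries differed, with 97.6 and 10.3 CPM. Ifi27 went the other way without passing, with 733 and 666 CPM in CCI and 831 and 877 CPM in CON, and Irf9 and Stat2 overlapped. Ifit2, Xaf1 and Zbp1 had both CCI libraries above both CON libraries and did not pass either (adjusted p = 0.185, 0.159 and 0.161, edgeR).

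Class I varied widely among SST-like cells, and also among PEP1-like and Trpm8-like cells. The median cell had 5.03 and 4.26 class I UMIs per 10000 in CCI and 2.86 and 3.26 in CON, and the highest cell had 58.7 and 32.9 in CCI and 6.22 and 3.94 in CON. In CCI, 30 of 78 and 14 of 44 cells exceeded the highest CON cell, and the richest single cell held 9.50% and 10.2% of the class I UMIs. The highest CON cell came from only 55 and 10 cells. The highest PEP1-like cell had 70.1 and 39.3 in CCI and 11.2 and 12.8 in CON. There 16 of 126 and 17 of 84 CCI cells exceeded the highest CON cell. The highest Trpm8-like cell had 60.8 and 35.6 in CCI and 10.6 and 7.47 in CON, with 9 of 108 and 6 of 42 CCI cells above the highest CON cell. Injury genes were also higher in CCI: in SST-like neurons Atf3 had 470 and 608 CPM in CCI and 84.4 and 58.2 CPM in CON. Sprr1a had 142 and 1068 CPM in CCI and 0.395 and 0 CPM in CON there. This was not particular to SST-like neurons, as Atf3 was higher in both CCI libraries of every other subtype and cluster. Atf3 had 638 and 1052 CPM in CCI and 82.4 and 14.6 CPM in CON Trpm8-like neurons. In neuron cluster 2, where no member was called, it had 460 and 295 CPM in CCI and 39.6 and 10.6 CPM in CON. A link between injury genes and members was not tested. Satellite glia markers summed to 1420 and 1295 CPM in CCI and 852 and 399 CPM in CON SST-like neurons, against 97990 and 128900 CPM in CCI and 106500 and 115800 CPM in CON satellite glia-like cells. Immune markers summed to 10.0 and 10.6 CPM in CCI and 40.6 and 14.4 CPM in CON SST-like neurons. The part of RNA from other cells in the result was not tested.

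**Figure D5:**
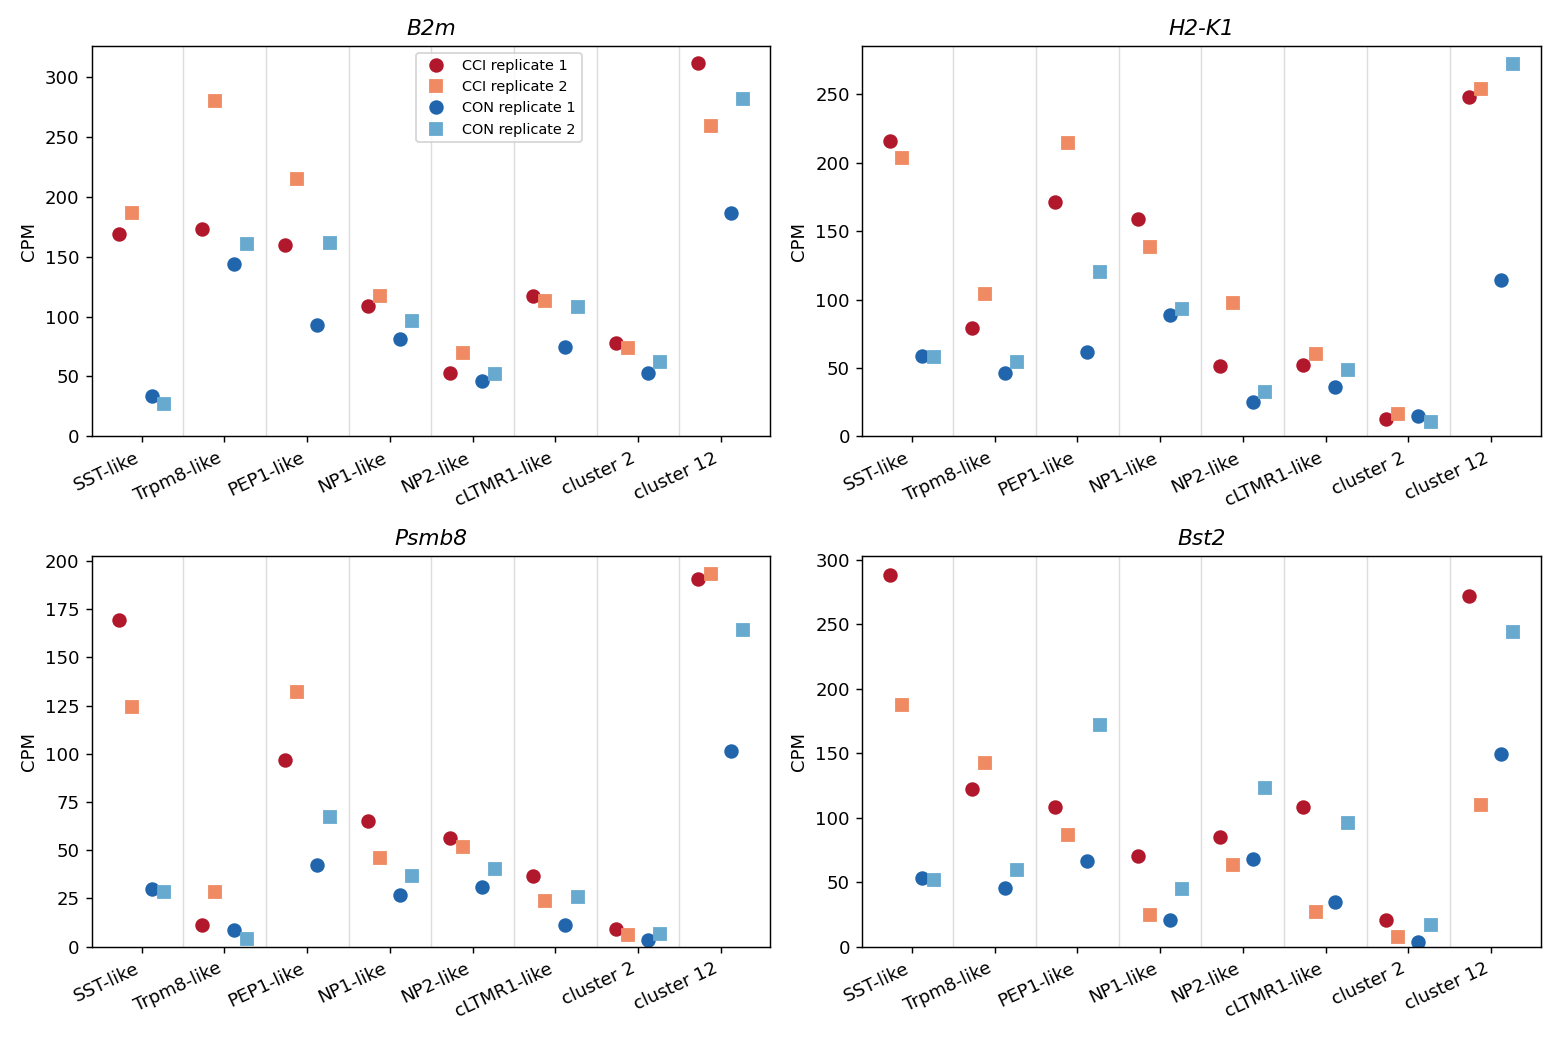
Levels (CPM) of B2m, H2-K1, Psmb8 and Bst2 in 6 neuron subtypes and 2 neuron clusters given by number; each point is 1 library, CCI in red and CON in blue. In SST-like neurons the groups are far apart for all 4 genes (B2m 169 and 187 CPM in CCI and 33.5 and 26.7 CPM in CON), while in PEP1-like neurons B2m and Bst2 overlap between groups.

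The log2 fold change of B2m, 2.54 in SST-like neurons, was 0.57 in Trpm8-like, 0.31 in NP2-like, 0.35 in NP1-like, 0.56 in PEP1-like and 0.33 in cLTMR1-like neurons and 0.41 and 0.29 in neuron clusters 2 and 12. SST-like neurons were singled out after these levels had been seen, so the difference is a description and was not tested, and it rests on 10 cells in CON replicate 2.

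In Trpm8-like neurons, which sense cold, the members called were 7 interferon genes. They numbered 108 and 42 in CCI and 74 and 14 in CON, and 7 of 26 members tested were higher in CCI and none lower, where 0.879% of all 10471 genes tested were called higher and 0.0764% lower (edgeR). DESeq2 called 8, adding Bst2 and H2-D1 (adjusted p = 0.0183 and 0.0448) and leaving out Ifit1. At an unadjusted p under 0.05 there were 18 members, where 8.35% of all genes were, and CCI was the higher without overlap in 21 members, where it was in 19.4% of all genes. Ifit2 had 26.2 and 59.9 CPM in CCI and 4.34 and 4.18 CPM in CON (log2 fold change 3.29 ± 0.53, SE, adjusted p = 0.00969, edgeR), and Ifit1 had 334 and 538 CPM in CCI and 25.5 and 91.9 CPM in CON (2.95 ± 0.49, SE, adjusted p = 0.0124). Ifit3, Isg15, Irf7, Oasl2 and Usp18 were the others. B2m had 173 and 280 CPM in CCI and 143 and 161 CPM in CON Trpm8-like neurons (log2 fold change 0.57 ± 0.31, SE, adjusted p = 0.689, edgeR). H2-D1 had 244.5 and 323 CPM in CCI and 119.5 and 142 CPM in CON (1.12 ± 0.30, SE, adjusted p = 0.136, edgeR). H2-K1, H2-Q4 and H2-T23 also had both CCI libraries above both CON libraries, with log2 fold changes of 0.87, 2.31 and 2.09, and H2-T23 missed the threshold (adjusted p = 0.0655, edgeR). Trpm8 itself was 77.1 and 4.28 CPM in CCI and 90.1 and 36.6 CPM in CON, so this cluster held the channel at a low level in CCI replicate 2. Satellite glia markers summed to 499 and 3470 CPM in CCI and 2256 and 1677 CPM in CON there. Without CCI replicate 2, 4 members were called, and without CCI replicate 1, 11.

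NP2-like neurons, the Mrgpra3 itch neurons, had 50 and 31 cells in CCI and 40 and 16 in CON, and edgeR and DESeq2 called none of 24 members tested, where 0.0710% of all 9866 genes were called higher. None was called lower, where 0.0101% of all genes were, and 3 members had an unadjusted p under 0.05, where 2.93% of all genes did. H2-K1 had 51.1 and 97.7 CPM in CCI and 25.5 and 32.3 CPM in CON NP2-like neurons, with a log2 fold change of 1.35 (adjusted p = 0.6, edgeR), and Bst2 overlapped, with 85.2 and 63.4 CPM in CCI and 67.8 and 123 CPM in CON. In neuron cluster 12, with 56 and 45 cells in CCI and 58 and 14 in CON, edgeR and DESeq2 called none of 26 members tested, where 0.0495% of all 10098 genes were called higher and 0.00990% lower, and 2 members had an unadjusted p under 0.05, where 2.67% of all genes did.

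Outside neurons no member was called higher or lower in CCI. On simulated counts, edgeR recovered 10% of 4-fold changes in satellite glia-like and 0% in endothelial cell-like cells. The lack of edgeR calls there therefore says little about changes of that size. DESeq2 recovered 71% and 64% of the 4-fold changes, and 15% and 2% of the 2-fold changes. DESeq2 also called 59 and 38 genes that the simulation had left unchanged, where edgeR called 2 and 0. The remaining non-neuronal classes were not simulated. The edgeR test was run on 29 members in satellite glia-like, endothelial cell-like and immune cell-like cells, 27 in fibroblast-like and pericyte-like and 26 in Schwann cell-like cells. In satellite glia-like cells 0.00764% of all genes were called higher, and in the other 5 classes and in the other direction 0. At an unadjusted p under 0.05 there was 1 member, Psmb8 in fibroblast-like cells, where 4.91% of all genes were. No member reached it in satellite glia-like, Schwann cell-like, pericyte-like, endothelial cell-like or immune cell-like cells, where 2.84%, 2.34%, 1.88%, 3.27% and 4.69% of all genes did, and DESeq2 called none in any of the 6 classes. The median log2 fold change of the members was 0.08 in satellite glia-like, 0.22 in Schwann cell-like, 0.18 in fibroblast-like, 0.05 in pericyte-like, 0.06 in endothelial cell-like and -0.49 in immune cell-like cells.

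In satellite glia-like cells B2m, H2-K1 and H2-D1 had log2 fold changes near 0, and the interferon genes had wide errors. B2m had 819 and 922 CPM in CCI and 895 and 762 CPM in CON satellite glia-like cells, a log2 fold change of 0.07 ± 0.21 (SE, adjusted p = 0.999, edgeR), and H2-K1 and H2-D1 had -0.0044 ± 0.23 and 0.10 ± 0.24 (SE). H2-Q4 was less even, with log2 fold changes of 0.86 ± 0.54 in satellite glia-like, 0.74 ± 0.56 in pericyte-like, 0.69 ± 0.29 in fibroblast-like and -1.02 ± 0.65 in immune cell-like cells (SE), and its groups overlapped in all of these but fibroblast-like cells. In endothelial cell-like cells B2m had 1475 and 1461 CPM in CCI and 1139 and 1805 CPM in CON (log2 fold change -0.0035 ± 0.33, SE, adjusted p = 1.00, edgeR). Ifit3 in satellite glia-like cells, by contrast, had a log2 fold change of 0.07 with an SE of 1.08. In immune cell-like cells 5 of 29 members had a log2 fold change above 0, and CON replicate 2 was the highest library for most of them. Psmb8 in fibroblast-like cells had 150 and 98.9 CPM in CCI and 49.1 and 78.4 CPM in CON (log2 fold change 1.01 ± 0.38, SE, adjusted p = 0.874, edgeR). Ifitm3 was above CON in both CCI libraries in satellite glia-like cells, at 1956 and 1535 CPM in CCI and 778 and 1472 CPM in CON, and in fibroblast-like cells, at 3146 and 2679 CPM in CCI and 1106 and 2207 CPM in CON, without passing (adjusted p = 0.999 and 0.874, edgeR).

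The effect of CCI on a member was not shown to differ between neurons and any other class. In the edgeR test of that difference none of the 29 members passed in the 6 contrasts, where 0.108% of the 14831 genes tested were called for satellite glia-like, 0.0202% for Schwann cell-like, 0.108% for fibroblast-like, 0.0539% for pericyte-like, 0.115% for endothelial cell-like and 0.169% for immune cell-like cells. At an unadjusted p under 0.05 there were 3, 0, 1, 0, 5 and 11 members, all with the larger value in neurons. Of all genes tested, 2.97%, 3.14%, 4.67%, 3.94%, 4.96% and 7.49% reached it in the same contrasts. B2m was among them in 4 of the contrasts, with differences of -0.79 for satellite glia-like, -0.75 for fibroblast-like, -0.80 for endothelial cell-like and -0.89 for immune cell-like cells (lowest adjusted p = 0.526). Without CON replicate 1 the test called 3 differences.

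Other genes of the pathway were counted from lists, beside the 4.51% of all genes called higher and 0.884% lower in neuron-like cells. Of 33 other interferon-stimulated genes tested in neuron-like cells 6 rose and none fell, with a median log2 fold change of 0.77. Trim30a, which damps NF-κB signalling, had 4.12 and 2.76 CPM in CCI and 0.132 and 0.349 CPM in CON (log2 fold change 3.94 ± 0.47, SE, adjusted p = 0.00151, edgeR). The GTPase Gbp2 had 10.5 and 13.1 CPM in CCI and 1.08 and 1.74 CPM in CON (3.09 ± 0.29, SE, adjusted p = 0.000389). Rsad2, or viperin, and Iigp1, an immunity-related GTPase, followed with log2 fold changes of 1.89 and 1.63 (adjusted p = 0.0284 and 0.0474). Among 22 genes for interferons, their receptors and signalling, 2 rose and none fell. These were Socs1, the feedback inhibitor of JAK kinases, with 28.8 and 85.3 CPM in CCI and 13.3 and 11.9 CPM in CON, and Sting1, the adaptor of cytosolic DNA sensing, with 9.53 and 10.96 CPM in CCI and 4.39 and 5.23 CPM in CON (adjusted p = 0.0187 and 0.0191, edgeR). Of 11 other class I genes 1 rose, the lipid-presenting Cd1d1, with 9.52 and 12.1 CPM in CCI and 3.03 and 3.94 CPM in CON (log2 fold change 1.64 ± 0.24, SE, adjusted p = 0.00454, edgeR). None of the 3 constitutive proteasome subunits that the immunoproteasome replaces passed, and no gene of these lists was called in any other class.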

How the data were processed

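The authors sequenced 4 libraries of dissociated DRG cells with 10x 3′ chemistry, and the submitters' processing notes name CASAVA 1.8, Cell Ranger, Seurat and the mm10 genome. The deposited values are raw UMI counts per gene and barcode. Barcodes with more than 500 genes and less than 20% mitochondrial UMIs were kept. They were clustered with Seurat 5.3.0 and sctransform 0.4.2 in R 4.3.3 (2000 features without the members and pathway genes, 10 components, resolution 0.8). A cluster was named from fixed markers when at least 3 of them were 1.5-fold above the other cells. The mean log2 fold of the markers also had to be at least 0.25. This rule was set with the clusters in view. Neuron clusters with more markers of another subtype among their 10 leading genes kept their number. Clusters below the median depth divided by 3 stayed unnamed if none of their markers was among those 10 genes. Neuron clusters below the median depth of their library were set apart as low-UMI barcodes. No doublet caller was run.

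Within each class the UMIs of a library were added up, and CCI was tested against CON with edgeR 4.0.16 (quasi-likelihood, TMM, filterByExpr, Benjamini-Hochberg adjustment over all genes tested, threshold 0.05). The interaction fits had the library as a block. An exact permutation test of 2 libraries against 2 cannot go below p = 0.333. DESeq2 1.42.0, other scalings and filters, each library left out, and clusters from scanpy 1.11.5 and leidenalg 0.10.2 were alternatives. The test was checked on simulated counts with 2-fold and 4-fold changes. In neuron-like cells edgeR recovered 45% and 89% of them. It recovered 0% and 10% in satellite glia-like cells and 0% and 0% in endothelial cell-like cells. Beside the 200 changed genes, edgeR called 16 unchanged genes in neuron-like, 2 in satellite glia-like and 0 in endothelial cell-like cells. DESeq2 called 25, 59 and 38 unchanged genes in the same classes. The named members were those called in any class and the 3 with the highest mean level in each role, and of the other lists up to 4 called genes by size of change. The members and lists were chosen with earlier results of these data known. A search of promoters for interferon response elements was not run, and no sequence is printed. Gene positions are from RefSeq (GRCm38.p6), in which all 29 symbols matched.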

Additional observations from a re-analysis of the deposited data

Results flagged for a closer look

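Nlrc5 had both CCI libraries below both CON libraries in 1 subtype, SST-like neurons (1.97 and 1.33 CPM in CCI and 3.55 and 3.42 CPM in CON), and above them in PEP1-like and Trpm8-like neurons and in neuron clusters 2 and 12; this difference was not tested and rests on 4 to 10 UMIs a library in SST-like neurons.

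Cells outside the 7 classes were also looked at. In the low-UMI barcodes with neuron markers 7 of the 29 members had both CCI libraries above both CON libraries, as 22.1% of the 14522 genes with at least 10 UMIs did. In the unnamed clusters 8 members did, as 14.6% of 13218 genes did, among them H2-K1 with 534 and 551 CPM in CCI and 348 and 422 CPM in CON.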

How the results depend on the processing

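In neuron-like cells the count of members called, 3, was 5 with DESeq2, 13 with no filter on low counts, 0 outside the CIP-like clusters and 6 without the unnamed neuron clusters, and 1 to 19 with 1 library left out. Upper-quartile factors, the stricter filter on cells, clusters without integration, added low-UMI barcodes and the removal of cells rich in immune UMIs gave 2 to 4. The share of all genes called higher moved too. It was 4.51% in the main fit, 5.15% with DESeq2 and 5.50% with no filter. It was 1.40% outside the CIP-like clusters, 5.24% without the unnamed neuron clusters and 3.85% to 4.64% in the settings that gave 2 to 4. Replicate numbers are shared by the groups but nothing says that they pair the libraries. The replicate block gave 11 in neuron-like cells (9.60% of all genes called higher), 1 in cLTMR1-like (0.349%) and 1 in neuron cluster 2 (4.49%). It gave 2 in NP1-like (1.11%) and 3 in neurons outside CIP-like clusters (2.28%), and 0 in the other 6 classes. With no filter, 2 members were called lower in immune cell-like cells. The counts called higher were 1 in cLTMR1-like (0.588% of all genes), 4 in NP1-like (1.07%) and 7 outside CIP-like clusters (2.62%), where DESeq2 gave 1 (1.82%). With 1 library left out they ran from 0 to 1 in fibroblast-like cells, 0 to 7 in cLTMR1-like, 0 to 6 in neuron cluster 2, 1 to 8 in NP1-like, 0 to 11 in PEP1-like neurons, 0 to 13 outside CIP-like clusters and 0 to 3 for the difference between classes. Without CON replicate 1, 2 of the 3 members called in cLTMR1-like neurons and the 1 in neuron cluster 2 were lower in CCI. Of the 29 members in neuron-like cells 26 had a log2 fold change above 0, and 20 to 29 did with 1 library left out. No member called there changed sign. In SST-like neurons the count was 12 to 22 over 10 alternatives, against 17, and in neuron cluster 12 it was 0 to 5, against 0. In Trpm8-like neurons the count, 7, fell to 4 with the stricter filter on cells (0.622% of all genes called higher). It was 14 with the replicate block (2.52%) and with no filter (1.53%). DESeq2 (1.18%) and the removal of cells rich in immune UMIs (1.22%) gave 8 there, and upper-quartile factors gave 7 (0.793%). The summed class I level of each class moved by less than its spread with stricter cells and with clusters made without integration. A lone library in a group is taken to vary like the others. Alternatives beyond the planned ones (CIP-like or unnamed clusters left out, small subtypes, settings of the difference tests) were chosen after seeing the data.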

Other observations

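Some interferon-related genes outside the list followed another order of libraries. Cxcl10, a chemokine that draws T cells, had 193 and 1796 CPM in CCI and 107 and 174 CPM in CON satellite glia-like cells, and in pericyte-like cells Cxcl10 had 91.8 and 1732 CPM in CCI and 102 and 96.0 CPM in CON. Irf1, a transcription factor of the type II interferon response, had 36.1 and 511 CPM in CCI and 23.04 and 64.7 CPM in CON satellite glia-like cells, and in endothelial cell-like cells Irf1 had 155 and 1057 CPM in CCI and 215 and 176 CPM in CON. In these genes CCI replicate 2 was the highest library, whereas Isg15 and Bst2 were low there. Ifnb1, which encodes interferon β, had no UMI in neuron-like, satellite glia-like, Schwann cell-like, fibroblast-like, pericyte-like and endothelial cell-like cells of any library. Rsad2 was an endothelial gene in both groups, with 675 and 769 CPM in CCI and 735 and 1134 CPM in CON endothelial cell-like cells, against 30.5 and 18.1 CPM in CCI and 3.87 and 9.45 CPM in CON neuron-like cells.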
